A study of Rattus norvegicus with 6 samples.

Results

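The miR-99 and miR-100 family is described here through its 3 rat hairpins, rno-mir-99a, rno-mir-99b and rno-mir-100, chosen by name from the 821 hairpins that the deposited files list. Small RNA was sequenced from RSC96, an established line of rat Schwann cells, kept for 48 h in high glucose (3 libraries) or low glucose (3 libraries, the controls). RSC96 was the single cell line used, and the labels give neither the glucose concentrations nor whether replicates were separate cultures, so the p-values reflect only how far these libraries scatter, possibly for technical reasons. The series title speaks of exosomes, the vesicles that cells release, the source is given as nerve, and the extraction text names retinas, so whether RNA came from cells or vesicles is not settled by the labels. High glucose libraries held 963706 to 1354456 counts and low glucose libraries 114615 to 148143.

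Each microRNA hairpin is cut into a 5p and a 3p arm, of which usually one is loaded into an Argonaute protein. The loaded strand finds its target messenger RNAs mainly through its seed, bases 2 to 8. The miR-99 and miR-100 family is an ancient one whose known targets include the growth kinase mTOR, and its genes lie in clusters with let-7 and miR-125 genes. Schwann cells form the myelin sheath of nerve fibres outside the brain and spinal cord.

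The 3 mature 5p sequences are shown first because they share a seed and differ at few other bases. They are given to base 22 as read from the deposited sequences, 5′ to 3′ in DNA letters, with the seed in capitals.
miR-99a-5p: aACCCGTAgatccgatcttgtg
miR-99b-5p: cACCCGTAgaaccgaccttgcg
miR-100-5p: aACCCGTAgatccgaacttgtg

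With positions counted from 1 at the 5′ end, miR-99a-5p and miR-100-5p differed at 1 of 22 bases, T16A. Between miR-99a-5p and miR-99b-5p 4 bases differed, A1C, T11A, T16C and T21C, all outside the seed. The same 3 sequences are repeated with the positions that differ within the family in capitals.
miR-99a-5p: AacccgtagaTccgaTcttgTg
miR-99b-5p: CacccgtagaAccgaCcttgCg
miR-100-5p: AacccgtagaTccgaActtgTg

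Because miR-99a-5p and miR-100-5p are so alike, reads could be listed under both. Of the family's 381529 counts, 156 (0.0409%), in 6 sequences, were shared in this way, so double listing was rare. This count cannot show reads with an error at the base that separates the arms, which could be listed under the wrong arm alone. The family accounted for 505 of 9522 distinct sequences.

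The hairpin sequences were matched to RefSeq entries of the GRCr8 assembly, and all 3 were found. rno-mir-99a lies at chr11:29687392-29687472 on the plus strand, within the long noncoding RNA gene LOC103693508 and 639 bases from let-7c-1. rno-mir-99b lies at chr1:67350064-67350133 on the plus strand, within the protein-coding gene Spaca6, with let-7e 95 bases and miR-125a 541 bases away. rno-mir-100 lies at chr8:50798295-50798374 on the plus strand, within the genes Mir100hgl and Lnc215, with let-7a-2 6828 bases and miR-125b-1 51661 bases away. Of the 3, mir-99b has the nearest such neighbour.

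In high glucose miR-99b-5p rose 4.89-fold, miR-99a-5p 1.36-fold, and miR-100-5p did not pass the test. These levels are CPM, counts expressed relative to library size with TMM scaling, a correction for composition. In these bulk samples the number of cells or vesicles that carry a microRNA and the amount in each cannot be told apart. Of the 4 family arms with enough counts to be tested, 3 were higher and 0 lower. Among all 297 tested arms 41.4% were higher and 22.6% lower at an adjusted p of 0.05, with a median log2 fold change of 0.68. The median was 0.24 over the 170 arms tested on counts thinned to equal depth, and 0.12 with upper quartile scaling. Arms at 0 in all low glucose libraries, such as miR-129-5p, could be tested through the deeper high glucose libraries alone. In this fit a rise was thus called more often than a fall, in part among such arms.

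miR-99b-5p stood at 29023, 44433 and 39023 CPM in the high glucose libraries and at 7033, 8377 and 7595 CPM in the low glucose ones. Every high glucose library was thus far above every low glucose one. The means were 37493 ± 7818 and 7668 ± 675 CPM (SD, n = 3), a change of 2.29 on the log2 scale (SE 0.19; edgeR adjusted p = 6.97e-05). By CPM it was the 9th, 8th and 8th most abundant arm in high glucose and the 23rd, 21st and 22nd in low glucose.

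miR-99a-5p, the most abundant family member in all 6 libraries, stood at 46869, 61935 and 61729 CPM in high glucose and 39271, 44116 and 42364 CPM in low glucose. The groups did not overlap, but high glucose replicate 1 lay closer to the controls than to its own replicates. The means were 56844 ± 8639 and 41917 ± 2453 CPM (SD, n = 3), a change of 0.44 on the log2 scale (SE 0.16; edgeR adjusted p = 0.0407). This call was lost under 7 other settings, with each of 4 single libraries left out (high glucose replicates 2 and 3, low glucose replicates 1 and 3; log2 fold changes 0.31 to 0.44, adjusted p 0.102 to 0.124), and with upper quartile scaling, under which the log2 fold change was -0.14. Its rank moved from 3rd in each low glucose library to 6th, 5th and 4th in high glucose.

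miR-100-5p stood at 6896, 6651 and 10137 CPM in high glucose and 7611, 9603 and 8007 CPM in low glucose. Here the groups overlapped, with high glucose replicate 3 as the highest of all 6. The means were 7895 ± 1945 and 8407 ± 1055 CPM (SD, n = 3), and the change was -0.09 on the log2 scale (SE 0.20; edgeR adjusted p = 0.713). Under upper quartile scaling, which moved the median of all tested arms by -0.58, it was -0.68 and passed as lower (edgeR adjusted p = 0.0265), and without low glucose replicate 2 it was 0.17.

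**Figure D1:**
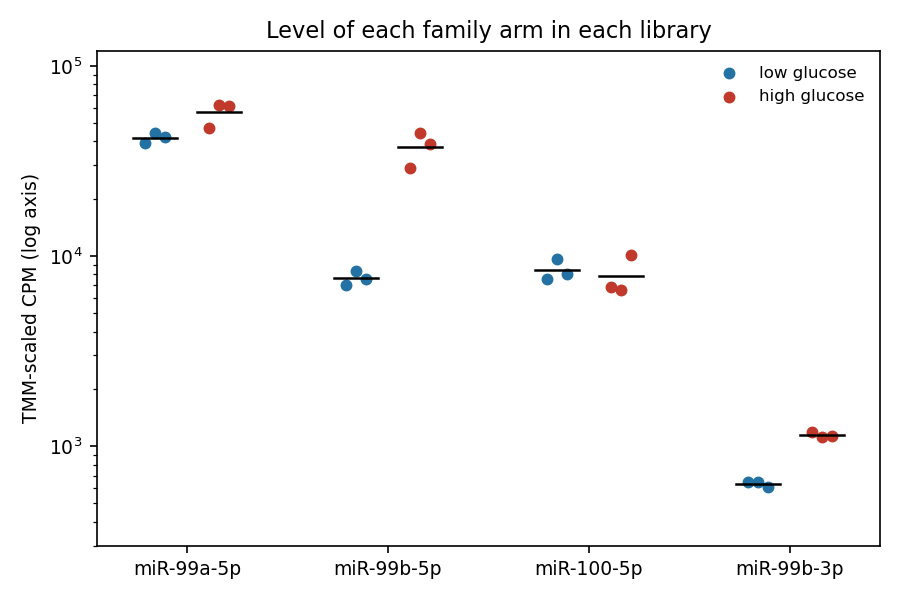
Level of the 4 tested family arms in each library, in TMM-scaled CPM on a log axis, with points for libraries and bars for group means (n = 3). miR-99b-5p goes from 7033 to 8377 CPM in low glucose up to 29023 to 44433 CPM in high glucose, while the groups of miR-100-5p overlap.

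The ratios between family members within a library do not depend on scaling between libraries. In all 6 libraries miR-99a-5p came first. In the low glucose libraries miR-100-5p was just above miR-99b-5p, at 1.08, 1.15 and 1.05 counts per miR-99b-5p count. In the high glucose libraries the order of these 2 was the reverse, with 0.238, 0.150 and 0.260 miR-100-5p counts per miR-99b-5p count. Levels of different microRNAs are compared as counts here, since the arms have nearly the same length, and ligation bias between sequences was not measured.

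Of the counts on the 3 5p arms, miR-99b-5p held 35.1%, 39.3% and 35.2% in high glucose and 13.0%, 13.5% and 13.1% in low glucose. The share of miR-99a-5p was 56.6%, 54.8% and 55.7% in high glucose and 72.8%, 71.0% and 73.1% in low glucose. The share of miR-100-5p was 8.33%, 5.89% and 9.14% in high glucose and 14.1%, 15.5% and 13.8% in low glucose. None of the 3 shares overlapped between the groups. The shares of a library add up to the whole, so they do not move independently.

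On the log2 scale the ratio of miR-99b-5p to miR-99a-5p was 1.84 higher in high glucose, and that of miR-99b-5p to miR-100-5p 2.38 higher. The log2 ratio of miR-100-5p to miR-99a-5p was -2.86 ± 0.32 in high and -2.32 ± 0.11 in low glucose (SD, n = 3), a difference of -0.54. Each of these 3 ratios separated the groups, with an exact two-sided permutation p of 0.1, the smallest that 3 against 3 libraries allow (0.1 after adjustment over the 3). They are not independent results, since each ratio follows from the other 2. How often ratios of other pairs of arms separate the groups was not counted. The ratio of miR-100-5p to miR-99a-5p thus differed although the 2 sequences differ at a single base.

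**Figure D2:**
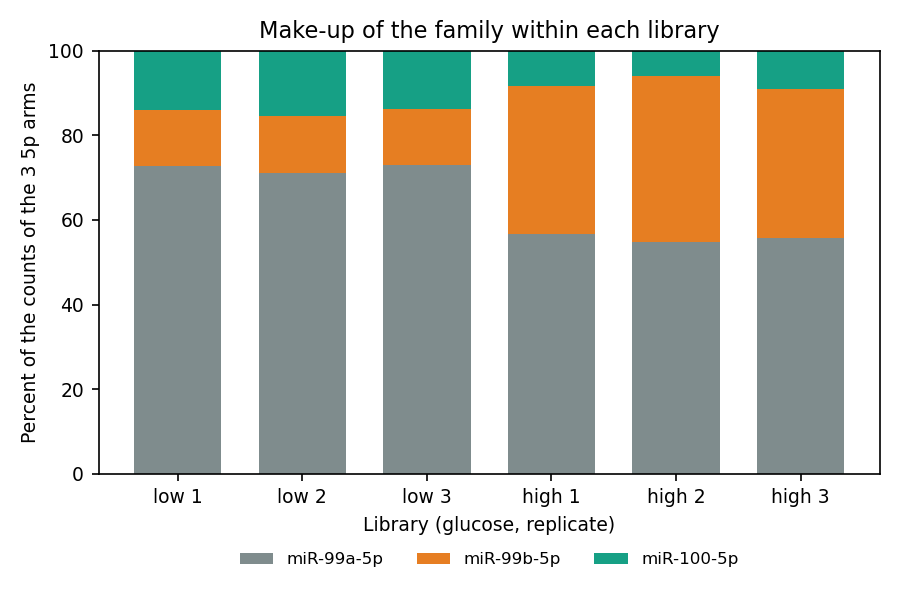
Percent of the counts of the 3 5p arms that each arm holds, as stacked bars for the 3 low and 3 high glucose libraries. miR-99b-5p takes 13.0% to 13.5% of the counts in low glucose and 35.1% to 39.3% in high glucose.

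Seen by seed, the sequences that carry ACCCGTA at bases 2 to 8 made up 7.65%, 9.98% and 9.27% of the library in high glucose and 5.66%, 5.67% and 5.09% in low glucose. The pool with this seed was larger in every high glucose library (exact permutation p = 0.1). These percents are not TMM-scaled, so they depend on what fills the rest of the library. How many other seeds gained share was not counted. Other arms gave at most 0.00398% of these counts in a library. miR-99b-5p supplied 38.5% ± 2.7 of the pool in high and 14.3% ± 0.2 in low glucose (SD, n = 3).

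A second seed came from the same genes. The second most abundant sequence of miR-99a-5p starts 1 base earlier, which moves the seed to AACCCGT (capitals).
miR-99a-5p, usual start: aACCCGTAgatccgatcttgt
miR-99a-5p, 1 base earlier: aAACCCGTagatccgatcttgt

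This earlier form held 9.19%, 9.79% and 8.53% of miR-99a-5p counts in high glucose and 10.04%, 9.95% and 10.04% in low glucose. The shares were slightly lower in high glucose without overlap, and its use within the arm did not pass the test (log2 difference -0.12, edgeR adjusted p = 0.813). miR-99a-5p gave at least 99.5% of the counts with that seed in each library. In the other 2 arms starts 1 base earlier were rare, with means of at most 0.0915% of the arm. miR-100-5p instead had starts 1 base later, at 4.47%, 7.82% and 4.79% in high glucose and 4.39%, 3.84% and 4.36% in low glucose.

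The ends of the sequences differed more than their starts. 3′ ends of microRNAs are known to be trimmed by exonucleases and extended with untemplated A or U by nucleotidyl transferases, and the resulting forms are called isomiRs. In miR-99b-5p the 21 nt form and the longer forms traded places. They are shown with a base that does not match the hairpin in capitals.
miR-99b-5p, 21 nt: cacccgtagaaccgaccttgc
miR-99b-5p, 22 nt: cacccgtagaaccgaccttgcg
miR-99b-5p, 23 nt: cacccgtagaaccgaccttgcgT

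The 21 nt form held 57.1%, 66.0% and 58.6% of miR-99b-5p in high glucose and 31.0%, 31.7% and 32.1% in low glucose. The 22 nt form, which is the RefSeq mature sequence, held 15.2%, 10.1% and 17.5% in high glucose and 29.0%, 32.2% and 29.2% in low glucose. The 23 nt form, with G23T against the hairpin, held 2.56%, 1.502% and 1.84% in high glucose and 12.1%, 9.84% and 10.02% in low glucose. In low glucose the 21 and 22 nt forms were thus about equal, and in high glucose the 21 nt form was the main one in every library.

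Use within the arm, the log2 fold change of a sequence set against that of its whole arm, was tested over 1452 sequences of all arms, a test chosen after the data were seen. Of these, 7.23% had higher and 9.99% lower use in high glucose. In miR-99b-5p the 21 nt form rose in use by 0.97 (edgeR adjusted p = 0.00568), the 22 nt form fell by 1.12 (edgeR adjusted p = 0.00144) and the 23 nt form fell by 2.49 (edgeR adjusted p = 6.48e-11). The first of these calls was lost without any one low glucose library and the second without low glucose replicate 2, with use values of 0.94 to 0.96 and -1.05 and adjusted p of 0.0524 to 0.126. Fitted with no filter on low counts, which left more sequences to adjust over, neither of these calls passed (adjusted p 0.309 and 0.170). In all, 1 of 24 tested miR-99b-5p sequences rose and 6 fell in use.

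In miR-99a-5p the 21 nt form was the main one in both groups, and the rarer forms differed. They are shown with mismatched bases in capitals.
miR-99a-5p, 18 nt: aacccgtagatccgatct
miR-99a-5p, 21 nt: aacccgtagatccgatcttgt
miR-99a-5p, 21 nt, other end: aacccgtagatccgatcttgC
miR-99a-5p, 22 nt: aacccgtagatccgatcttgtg
miR-99a-5p, 23 nt: aacccgtagatccgatcttgtgA

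The main 21 nt form held 71.8%, 72.1% and 74.9% in high glucose and 63.5%, 62.9% and 65.9% in low glucose. Its use within the arm did not pass the test (log2 difference 0.19, edgeR adjusted p = 0.692). The 22 nt form held 0.702%, 0.389% and 1.14% in high glucose and 5.30%, 6.29% and 5.14% in low glucose. It fell in use by 2.93 (edgeR adjusted p = 8.14e-14), the largest fall among the named miR-99a-5p sequences. In CPM too it was lower in high glucose, with a log2 change of -2.06 (edgeR adjusted p = 0.00161), although the whole arm was not.

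The 23 nt form with G23A held 1.48%, 0.890% and 1.42% in high glucose and 5.25%, 5.09% and 4.86% in low glucose, and fell in use by 2.04 (edgeR adjusted p = 1.41e-08). The 18 nt form moved the other way, from 3.48%, 3.68% and 3.70% in low glucose to 8.53%, 8.63% and 6.35% in high glucose. Its use rose by 1.12 (edgeR adjusted p = 0.00181), which did not pass once low glucose replicate 1 or 2 was left out (log2 difference 1.08 and 1.12, adjusted p 0.0734 and 0.0524). The 21 nt form ending with T21C, a substitution that also separates miR-99b-5p from miR-99a-5p, held 3.98% ± 0.27 in high and 6.29% ± 0.77 in low glucose (SD, n = 3), and its use did not pass the test (log2 difference -0.66, edgeR adjusted p = 0.104). In miR-99a-5p 1 of 28 tested sequences rose and 7 fell in use.

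In miR-100-5p the main form was 22 nt long in each library, and shorter forms gained share. They are shown with mismatched bases in capitals.
miR-100-5p, 18 nt: aacccgtagatccgaact
miR-100-5p, 21 nt: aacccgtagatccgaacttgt
miR-100-5p, 22 nt: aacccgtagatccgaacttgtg
miR-100-5p, 23 nt: aacccgtagatccgaacttgtgT

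The 22 nt form held 47.1%, 38.2% and 56.9% in high glucose and 52.8%, 60.4% and 56.0% in low glucose, so the groups overlapped (exact permutation p = 0.3). The 21 nt form held 19.2%, 26.9% and 15.8% in high glucose and 13.1%, 9.28% and 12.3% in low glucose. Its use rose by 0.81 (edgeR adjusted p = 0.0493), a call that 8 of the 11 other settings did not keep. The 18 nt form held 3.90%, 6.08% and 2.98% in high glucose and 1.01%, 0.698% and 1.45% in low glucose, and rose in use by 2.04 (edgeR adjusted p = 7.09e-05). In the low glucose libraries it rested on 11, 10 and 13 counts. The 23 nt form with C23T held 11.2% ± 2.1 in high and 14.9% ± 1.0 in low glucose (SD, n = 3), and its use did not pass (log2 difference -0.44, edgeR adjusted p = 0.367). In miR-100-5p 4 of 15 tested sequences rose and 1 fell in use.

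**Figure D3:**
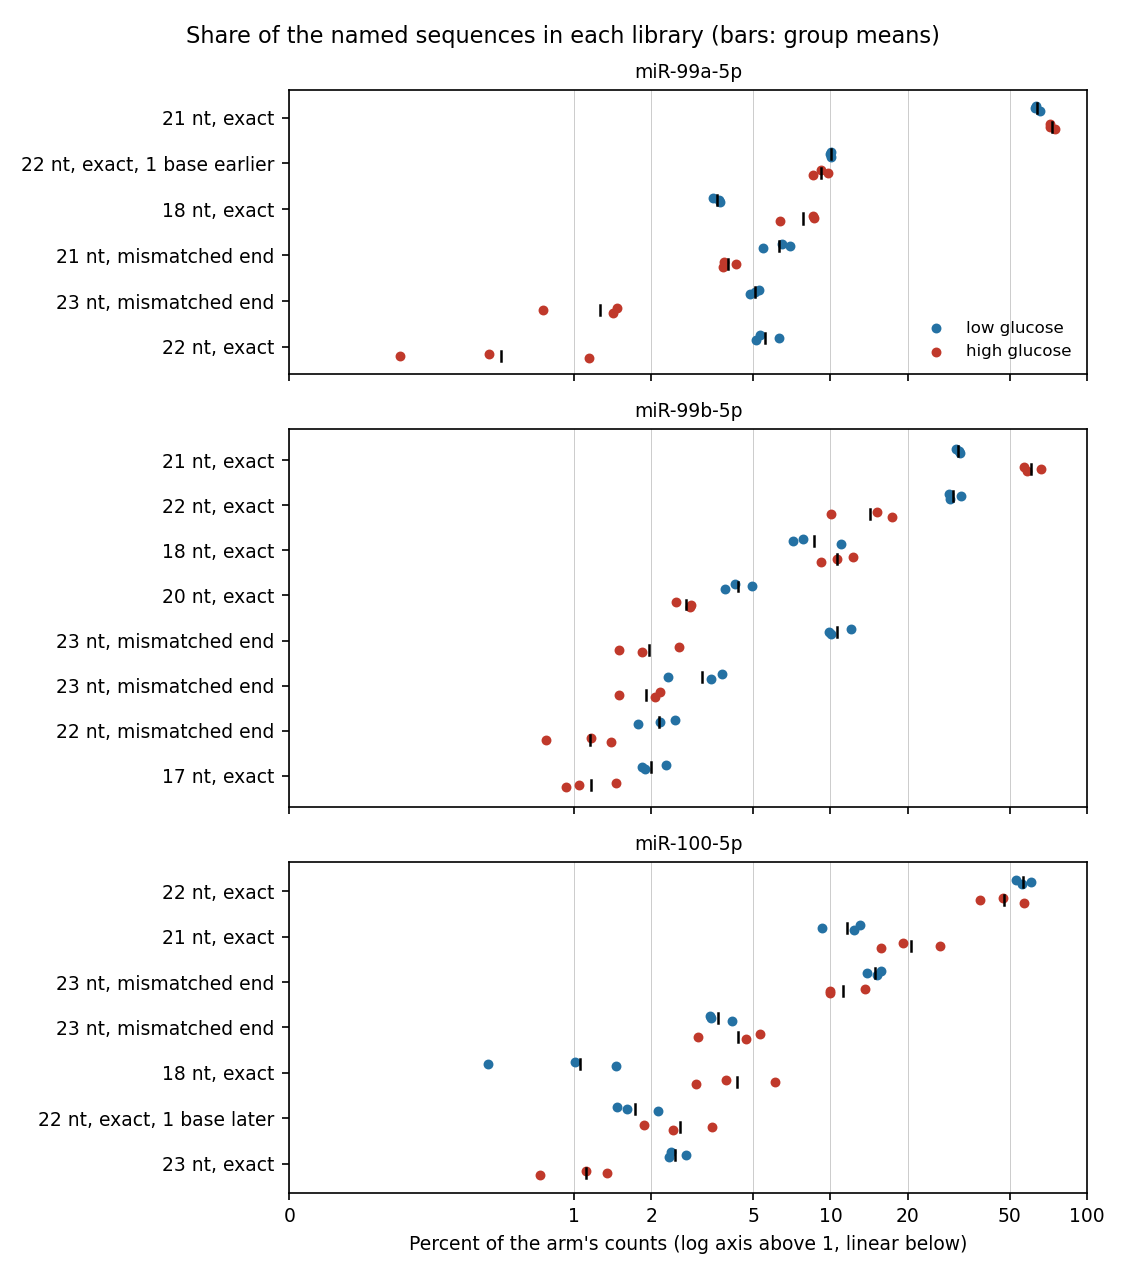
Percent of the arm's counts held by each named sequence of the 3 5p arms, per library, on an axis that is logarithmic above 1 and linear below, with bars for group means. The 22 nt exact and 23 nt mismatched forms of miR-99a-5p lie at 4.86% to 6.29% in low glucose and at 0.389% to 1.48% in high glucose.

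Counted as separate sequences in a fit over 1541 sequences of all arms, 17 of 24 miR-99b-5p sequences were higher and 1 lower in high glucose. Of 28 miR-99a-5p sequences 9 rose and 6 fell. In miR-100-5p 4 of 15 rose and 1 fell. Over all arms 34.8% were higher and 17.8% lower. Sequences of 1 arm are not separate results, and miR-99b-5p rose as a whole. Rare sequences could also enter the fit through the deeper high glucose libraries alone, in these arms and in all others. The miR-99a-5p sequences thus moved in both directions within 1 arm.

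The family's 5p arms were shorter on average in high glucose. Mean lengths were 20.84, 20.83 and 20.91 nt in high against 21.17, 21.17 and 21.15 nt in low glucose for miR-99a-5p. For miR-99b-5p they were 20.76, 20.74 and 20.88 nt against 21.30, 21.24 and 21.14 nt. For miR-100-5p they were 21.77, 21.48 and 21.82 nt against 21.995, 22.04 and 21.96 nt. In each of the 3 arms the groups did not overlap, with an exact permutation p of 0.1 (0.159 after adjustment over 81 measures of the 3 arms).

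A shorter mean length was common beyond the family. Of 61 annotated arms with at least 100 counts on average in each group, 41% were shorter in high glucose without overlap. A higher share of 16 to 19 nt sequences without overlap was seen in 55.7% of these arms, and in the family in miR-99a-5p (8.92% against 4.11%) and miR-100-5p (5.09% against 1.16%). In miR-99b-5p that share overlapped between groups, at 13.4% ± 2.0 in high and 11.8% ± 1.9 in low glucose (SD, n = 3). A higher share of the main sequence was seen in 39.3% of the arms, miR-99a-5p and miR-99b-5p among them.

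Sequences with a mismatch at the last base, the form an untemplated end takes, were rarer in high glucose for miR-99a-5p and miR-99b-5p. In miR-99a-5p they held 6.63%, 6.32% and 6.20% against 14.9%, 15.2% and 12.9% in low glucose. In miR-99b-5p they held 7.67%, 5.75% and 6.87% against 20.99%, 17.04% and 17.3%. In miR-100-5p they held 21.6%, 16.6% and 16.5% against 22.4%, 19.7% and 21.03%, which overlap. Thinned to equal depth in a single random draw, the miR-100-5p shares were 18.6%, 16.9% and 17.5% against 22.6%, 19.7% and 21.03%, without overlap. Over the 61 arms 27.9% were lower in high glucose without overlap. By base, a mismatched last T held 11.01% of miR-99b-5p in low and 2.61% in high glucose, and a mismatched last A 5.43% and 1.46% of miR-99a-5p.

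**Figure D4:**
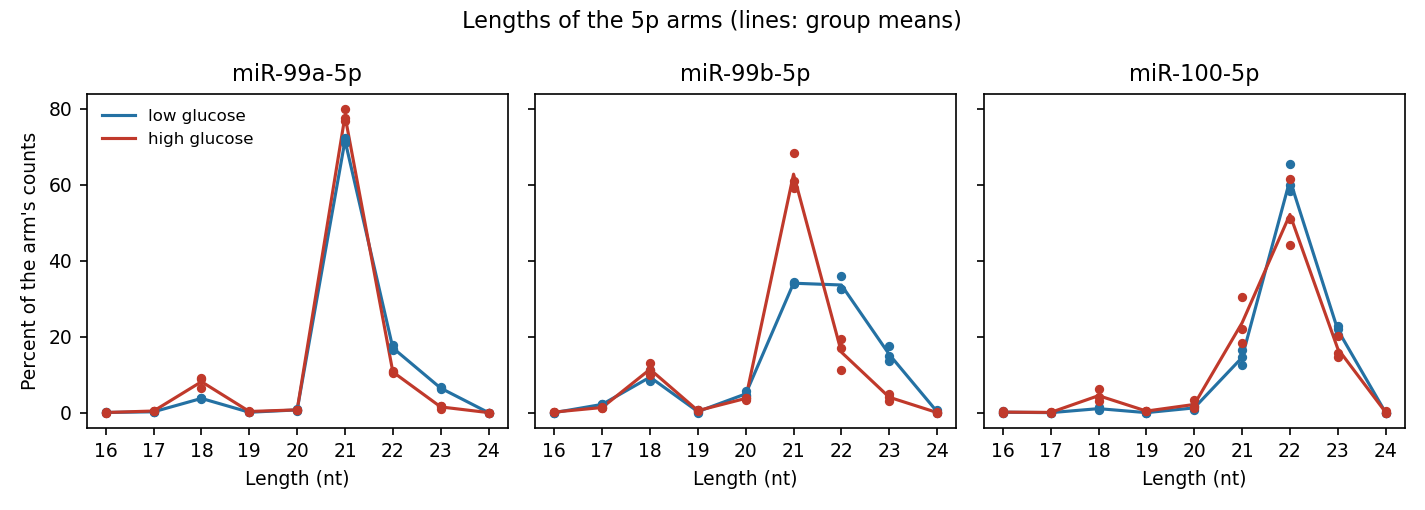
Percent of the counts of each 5p arm at each length from 16 to 24 nt, with points for libraries and lines for group means (n = 3). miR-99b-5p peaks at 21 nt in high glucose (62.8%) and has nearly equal shares at 21 nt (34.1%) and 22 nt (33.6%) in low glucose.

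The groups differed 9.31-fold in mean total counts, and a sequence is listed from 2 reads on, so a shallow library loses rare forms. With all libraries thinned to 114615 counts, the mean lengths were 20.86 against 21.17 nt for miR-99a-5p, 20.78 against 21.22 nt for miR-99b-5p and 21.68 against 21.9995 nt for miR-100-5p, again without overlap. The number of distinct miR-99a-5p sequences, 112 on average in high and 41 in low glucose, was 35.3 and 38.7 after thinning, which overlap between the groups. For miR-99b-5p it went from 136 and 25 to 41.7 and 24.3, still without overlap. Thinning evened out library totals, not the counts on each arm, and miR-99b-5p was 4.89-fold higher in high glucose. The thinned high glucose libraries therefore kept more reads of this arm. For miR-99b-5p the number thus cannot tell a greater variety of forms from deeper sampling of the arm. For miR-100-5p the number of distinct sequences went from 53.3 and 22 to 17 and 21.7. After thinning each low glucose library thus had more of them than each high glucose one. The thinning was a single random draw, and the spread between draws was not measured.

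On the 3p side, miR-99b-3p was the one arm with enough counts to be tested. Its most abundant sequence is shown with its seed in capitals.
miR-99b-3p, 23 nt: cAAGCTCGtgtctgtgggtccgt

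miR-99b-3p stood at 1186, 1119 and 1136 CPM in high glucose and 648, 650 and 609 CPM in low glucose. It rose 1.80-fold, a change of 0.85 on the log2 scale (SE 0.17; edgeR adjusted p = 0.00265), which did not pass with upper quartile scaling (log2 fold change 0.26). It therefore rose less than miR-99b-5p from the same hairpin. The 3p arm held 3.93%, 2.46% and 2.83% of the mir-99b counts in high glucose and 8.43%, 7.20% and 7.42% in low glucose, without overlap (exact permutation p = 0.1).

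The 23 nt form held 34.99%, 32.9% and 29.1% of miR-99b-3p in high glucose and 16.1%, 16.5% and 20.6% in low glucose, where it rested on 14 to 16 counts. Of the 9 tested miR-99b-3p sequences 0 passed in use with edgeR, and 0 had an unadjusted p under 0.05 (the 23 nt form had a log2 difference of 0.85, edgeR adjusted p = 0.176). miR-99a-3p was listed at 0 in all 6 libraries. miR-100-3p had 13 counts, in high glucose replicate 1.

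The genes beside the family in the genome were described from a list of 10 arms of let-7c, let-7e, let-7a, miR-125a and miR-125b, summed over all copies of each. Of these, 9 were higher and 0 lower in high glucose, beside 41.4% higher and 22.6% lower among all 297 tested arms, with a median log2 fold change of 2.65. let-7c-3p and let-7a-3p shared 98.6% and 100% of their counts, so these 2 of the 9 rest on nearly the same reads. With shared sequences left out, 7 of 8 tested arms were higher. let-7e-3p, at 0 counts in 2 low glucose libraries, did not pass (edgeR adjusted p = 0.0733). Family and neighbours thus did not all move by the same amount.

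In the mir-99b cluster the 5p arms moved together. let-7e-5p, a growth-repressing let-7 microRNA, had a change of 2.06 on the log2 scale (SE 0.26; edgeR adjusted p = 0.000439), and miR-125a-5p, a homologue of the worm timing regulator lin-4, one of 2.39 (SE 0.24, edgeR adjusted p = 0.000140). The log2 ratio of let-7e-5p to miR-99b-5p was -4.39 ± 0.43 in high and -4.19 ± 0.24 in low glucose, and that of miR-125a-5p was -1.97 ± 0.22 and -2.09 ± 0.32 (SD, n = 3). Both ratios overlapped between the groups (exact permutation p = 0.6 and 0.8).

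In the other clusters the let-7 members rose more than the family members. let-7c-5p changed by 2.99 in log2 units (SE 0.18), and its log2 ratio to miR-99a-5p went from -1.46 ± 0.15 in low to 1.10 ± 0.12 in high glucose (SD, n = 3). let-7a-5p changed by 2.84 in log2 units (SE 0.26), and its log2 ratio to miR-100-5p went from -1.57 ± 0.33 to 1.34 ± 0.30 (SD, n = 3). let-7a, let-7c and miR-125b have further copies elsewhere in the genome whose mature arms cannot be told apart.

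miR-125b-5p has a copy placed near mir-100 and another known near mir-99a that was not placed here. Its change was 0.47 on the log2 scale (SE 0.15, edgeR adjusted p = 0.0216). Under upper quartile scaling it was -0.12, and from its most abundant sequence alone -1.08 (edgeR adjusted p = 0.00274). It also missed the threshold with RLE size factors, total counts or DESeq2 (0.34 to 0.35) and without high glucose replicate 3 or low glucose replicate 1 or 3 (0.42 to 0.45, edgeR adjusted p 0.0623 to 0.0899). Its log2 ratio to miR-99a-5p overlapped between groups, at -1.41 ± 0.21 in high and -1.45 ± 0.09 in low glucose, while that to miR-100-5p was 1.46 ± 0.29 in high and 0.87 ± 0.03 in low glucose without overlap (SD, n = 3).

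**Figure D5:**
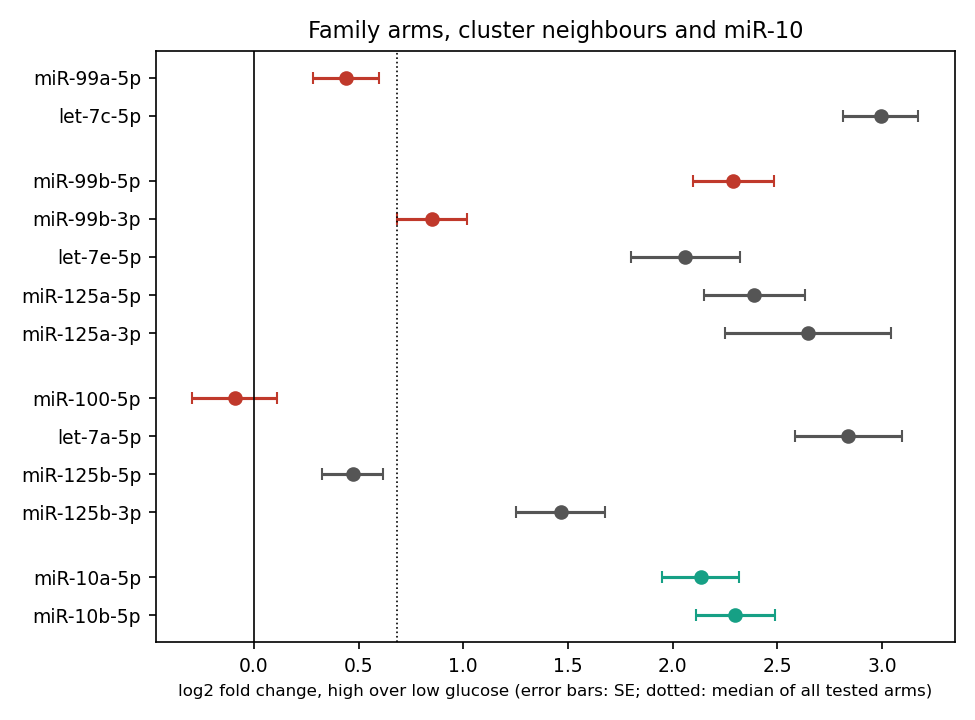
Log2 fold change of high over low glucose from edgeR, with its SE, for the tested family arms (red), the better-measured neighbours of each cluster (grey) and miR-10 (green). The mir-99b group lies between 0.85 and 2.64, while miR-99a-5p (0.44) and miR-100-5p (-0.09) lie left of their let-7 neighbours and of the dotted median of all tested arms (0.68). That median was 0.24 with thinned counts, so the place of miR-99a-5p against it depends on the setting.

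miR-10a-5p and miR-10b-5p, which are encoded in the Hox gene clusters, have mature sequences that resemble the family but other seeds. They are shown from RefSeq (GRCr8) in RNA letters, with the seed in capitals. The RefSeq miR-10b-5p entry starts further along the stretch it shares with miR-10a-5p, so their marked seeds differ. Where the deposited miR-10 reads start was not examined.
miR-10a-5p: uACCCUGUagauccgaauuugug
miR-10b-5p: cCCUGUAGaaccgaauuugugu
miR-99b-5p: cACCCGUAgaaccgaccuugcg

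Both rose by nearly the same factor as miR-99b-5p, with log2 fold changes of 2.13 (SE 0.18) and 2.30 (SE 0.19). The log2 ratio of miR-10b-5p to miR-99b-5p was 0.71 ± 0.17 in high and 0.69 ± 0.18 in low glucose (SD, n = 3), and that of miR-10a-5p 0.41 ± 0.16 and 0.54 ± 0.22. Of the miR-10 arms 3 of 3 tested were higher, beside 41.4% of all tested arms, and 1 of them, miR-10a-3p, was listed at 0 in all low glucose libraries.

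Likeness of pattern was measured as Pearson's r of log2 CPM over the 6 libraries among 60 annotated arms with at least 100 counts on average in each group. It is a description, since libraries of 2 groups share their group difference and depth. Closest to miR-99b-5p were let-7b-5p (r = 0.996), miR-10b-5p (0.992), miR-10a-5p (0.990), let-7c-5p (0.989) and miR-125b-3p (0.983). Closest to miR-99a-5p were miR-125b-3p (0.954), miR-122-5p (0.925), miR-423-5p (0.916), miR-99b-5p (0.912) and miR-322-3p (0.910). Closest to miR-100-5p were miR-146b-5p (0.694), miR-24-3p (0.599), miR-26a-5p (0.553), miR-146a-5p (0.542) and miR-22-3p (0.538), so no arm followed it closely.

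Markers of other cell types also moved with the groups. The summed level of 3 erythroid microRNAs was 762 to 954 CPM in high and 3250 to 6395 CPM in low glucose. That of 3 liver microRNAs was 9192 to 15590 and 3197 to 4693 CPM. That of 5 neuronal ones was 16692 to 22925 and 7109 to 9279 CPM, with the neuronal miR-124 not listed. That rise came from miR-128, whose mean was 1992 ± 983 CPM in the low glucose libraries and 18252 ± 3414 CPM in the others (SD, n = 3), while miR-218a-5p fell (log2 fold change -2.31) and miR-9a-5p had a log2 fold change of 0.03. Without miR-128, a sum taken after the values were seen, the neuronal list was lower in high glucose, at 2381 to 2767 CPM against 5647 to 6561 CPM. Of 5 striated muscle markers, miR-1 counted as miR-1 and miR-1b, 3 were listed, summing to 45.005 to 114 CPM in high and 0 to 40.2 CPM in low glucose. The 4 leukocyte markers (49.9 to 249 CPM in high and 104 to 161 CPM in low glucose) and the 3 retinal ones, of which miR-96 was not listed (17.2 to 65.2 CPM in high and 34.8 to 107 CPM in low glucose), overlapped between groups. No microRNA marker of Schwann cells was on the lists, and the part of these differences in the family's values was not tested.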

How the data were processed

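Small RNA was measured in 6 libraries labelled with the cell line RSC96, 3 per group, from cells or their vesicles. Per the file headers, the deposited values are counts of reads for each distinct sequence on each hairpin, with no normalization. Novoalign 3.02.12 and cutadapt 1.9.3 appear in the submitters' processing notes with no role stated, and the hairpin database release is not given in the sources used here. Listed sequences were 16 to 40 nt long with at least 2 reads and at most 1 mismatch or gap, so rarer forms are missing most in the shallow low glucose libraries.

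Counts were summed per sequence and per arm (5p if the sequence's centre lay before the middle of the hairpin, otherwise 3p) (Python 3.11.15, pandas 2.3.3, NumPy 2.4.6, SciPy 1.17.1, matplotlib 3.10.9). All 932 arms were fitted with edgeR 4.0.16 in R 4.3.3 (quasi-likelihood, TMM, filterByExpr with a minimum count of 10, Benjamini-Hochberg at 0.05), as were all sequences. Use within the arm came from edgeR's diffSpliceDGE. Ratios and shares inside a library were tested by exact permutation (two-sided). limma 3.58.1, DESeq2 1.42.0, other scalings and filters, a replicate block, thinned counts and left-out libraries were alternatives. The fits were tested on simulated data. Named were all family arms, their main sequences and those of 2% or more of an arm in either group (at most 8 an arm), the listed neighbours and miR-10, and the 5 most alike arms. The members and lists were chosen with earlier results of these data known. Replicates differed by more than counting noise (chi-square per degree of freedom 5.31 to 142), and none was counted as a repeat.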

Additional observations from a re-analysis of the deposited data

How the results depend on the processing

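The log2 fold change of miR-99a-5p, 0.44 as reported, was 0.31 with RLE size factors, 0.31 with total counts only, 0.42 with a mean CPM of 10 or more, 0.31 with DESeq2, 0.41 with thinned counts and 0.38 without shared sequences, none past the threshold, and -0.14 with upper quartile scaling. That of miR-100-5p was 0.0374 with exact alignments only and -0.68, past the threshold, with upper quartile scaling. That of miR-125b-5p was -0.12 with upper quartile scaling and -1.08 from its most abundant sequence. The causes were not tested. Leaving out single libraries gave 0.31 to 0.63 for miR-99a-5p and -0.34 to 0.17 for miR-100-5p. miR-99b-5p was called higher in every setting run, at 2.08 to 2.51 without single libraries. Upper quartile scaling made 49.5% of the arm calls higher in place of 64.7%. Thinned counts gave 467 called sequences in place of 810, with fewer sequences tested. Same-numbered libraries did not deviate together (correlations of 0.045, -0.00071 and -0.028), so the numbers were not taken as pairs. With a replicate block the log2 fold change of miR-99a-5p was 0.48 and did not pass (edgeR adjusted p = 0.0589). The 3 ratios between 5p arms kept their direction in each setting run. Low depth limits the low glucose group most, where forms under a few percent of miR-100-5p or miR-99b-3p rest on few counts.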

Other observations

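Of 13 single mismatches inside the 3 5p arms, in sequences with the usual start, away from the last base and with at least 100 reads in all, 8 separated the groups, 7 of them higher and 1 lower in high glucose (exact permutation p = 0.1 each). Of the 7, 5 were listed at 0 in the low glucose libraries. All 5 lie in miR-99b-5p, with high glucose means of 0.0775% to 0.0944% of the arm. At the depth of the low glucose libraries and a minimum of 2 reads, shares this small are hardly listed. For these 5 the test therefore cannot tell a lower share from an unlisted one. How often such mismatches separate the groups in other arms, or at equal depth, was not counted. The lower one, T19C in miR-99b-5p, held 1.58%, 1.28% and 1.06% of the arm in the low glucose libraries and 0.0749%, 0.110% and 0.0755% in the high glucose ones, over 158 reads in all. A11G in miR-99b-5p was listed in each high glucose library, at 0.0606%, 0.0882% and 0.134%, and at 0 in the low glucose ones, whose depth of 848 to 1250 miR-99b-5p counts with a minimum of 2 reads makes such a share hard to see. These substitutions were chosen after their values were seen.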
